A study of Homo sapiens with 15 samples.

Results

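The genes described here are the 33 genes of cholesterol and fatty acid synthesis and of the sterol-sensing machinery that controls them, found by their gene symbols among the 59608 genes of the table. All 33 had a mean normalized count of at least 10, the minimum for testing, which 13561 of the 59608 genes reached. They fall into 5 regulators of the SREBP transcription factors, 19 genes of sterol synthesis and transport (the sterol arm) and 9 genes of fatty acid synthesis, elongation and desaturation (the fatty acid arm). RNA was sequenced from MDA-MB-231, an established human triple-negative breast cancer cell line of mesenchymal character, grown as a monolayer in DMEM with fetal bovine serum. Dishes were exposed for 6 h to ZJ-101, a truncated synthetic form of the sponge macrolide superstolide A, at 0.5, 5, 50 or 500 nM, or to 0.1% DMSO, the vehicle, alone. Each of the 5 groups holds 3 libraries of 1 cell line. The labels call the treated libraries biological replicates and number the DMSO libraries only as replicates. The study's methods give 3 biological replicates, without saying how the monolayer cultures were kept separate. P-values rest on the spread between these samples, which may be partly technical. The labels and the study's methods name different DMEM products for these cells, and serum itself carries cholesterol and fatty acids.

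SREBP1 and SREBP2, made from SREBF1 and SREBF2, are held in the endoplasmic reticulum as membrane-bound precursors. When sterols are low, SCAP carries them to the Golgi, where the proteases MBTPS1 and MBTPS2 release the active factor. When sterols are plentiful, INSIG1 and INSIG2 retain SCAP in the endoplasmic reticulum. The factors in turn raise the genes of the mevalonate pathway, of the conversion of squalene to cholesterol and of fatty acid synthesis, INSIG1 itself among them.

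The 15 libraries held between 12415519 and 15284762 reads on genes, and mitochondrial genes took 0.889% to 2.06% of them. Of the line's mesenchymal markers, VIM stood at 13430 to 18410 and AXL at 12150 to 14420 normalized counts over all libraries. CD44, of the same list, stood at 11980 to 12290 in DMSO and at 9275 to 9431 at 500 nM. The luminal factor FOXA1 lay at 16.0 to 31.9 and the T cell marker CD3E at 0. Other markers of those lists were higher, with KRT19 at 5414 to 7630, EPCAM at 266 to 320.2 and the endothelial marker PECAM1 at 200.8 to 321.4. The summed level of 6 luminal epithelial markers, most of it KRT19, was 6724 to 6861 in DMSO, 7081 to 8118 at 0.5 nM, 7200 to 7648 at 5 nM, 6115 to 6963 at 50 nM and 5942 to 6210 at 500 nM, so it moved with dose, and its part in the results below was not tested. Replicate 2 at 50 nM stood apart over the 33 genes. It was the highest of its group for 22 of them, where it was the highest for 35.8% of all tested genes. Replicate 2 at 0.5 nM differed most from its group over all genes and was the lowest of its group for 8 of the 9 fatty acid genes, as was DMSO replicate 3. In bulk RNA, fewer cells and less RNA per cell cannot be told apart.

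The 33 genes did not all move in 1 direction. With rising dose INSIG1 fell the furthest, by 0.86 on the log2 scale at 500 nM, and STARD4, a carrier of sterol between membranes, and IDI1, an enzyme of the mevalonate pathway, fell with it. In the same libraries SQLE and DHCR7, enzymes of later steps of cholesterol synthesis, the escort SCAP, and the fatty acid genes ELOVL6 and FADS3 rose by 0.16 to 0.30. SREBF1 fell at 0.5 and 5 nM. SCD, the main desaturase of newly made fatty acids, fell at 0.5, 5 and 50 nM. At 500 nM neither passed the test, though all SCD libraries lay below all DMSO libraries.

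Each dose was compared with the same 3 DMSO libraries by limma on log2(normalized count + 1), with Benjamini-Hochberg adjustment over all 13561 tested genes and a threshold of 0.05. At 0.5 nM, 0 of the 33 genes rose and 3 fell, where 0.251% of all tested genes rose and 0.922% fell. At 5 nM, 0 rose and 3 fell, against 0.465% and 1.71% of all tested genes. At 50 nM, 2 rose and 4 fell, against 2.29% and 3.71%. At 500 nM, 5 rose and 3 fell, against 7.69% and 10.1%. The count of 0 rises was also 0 with edgeR and with DESeq2 on the recovered reads at both low doses. At 0.5 nM DESeq2 gave an adjusted p to only 14 of 19 sterol genes and 8 of 9 fatty acid genes. Without 0.5 nM replicate 3, EBP rose at 0.5 nM by 0.47 (adjusted p = 0.0316 by limma). At an unadjusted p under 0.05, 2 members were higher at 0.5 nM and 0 at 5 nM. The share of all tested genes at that threshold was not computed. Since the 4 comparisons share their control libraries, their values are given side by side and no overlap between them is counted.

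For 29 of the 33 genes RefSeq promoters on GRCh38.p14 were at hand, each running from 250 bases before to 50 bases after the start of transcription, and ACAT2, FASN, FDFT1 and SQLE had none. The letters TCACNCCAC of the sterol regulatory element, to which SREBPs bind, were searched on both strands together with the NF-Y box CCAAT, the E-box CACGTG and the Sp1 box GGGCGG. NF-Y and Sp1 are known partners of SREBPs, and SREBPs can also bind an E-box. Counted per gene over all its promoters, the NF-Y box stood in 22 of the 29 genes and in 39.7% of 27305 genes with a promoter. It stood in 14 of 16 sterol genes, 6 of 8 fatty acid genes and 2 of 5 regulators. The Sp1 box was found in 28 of 29 against 48.3%, the E-box in 4 of 29 against 8.77%, and the sterol regulatory element in these exact letters in 1 of 29, SREBF2, against 1.39%. The 27305 genes were not limited to those tested here, as all 29 members were, and shares over the tested genes alone were not computed. A match is a run of letters and not a measured binding site. The 240 bases before the start are printed for SREBF2, the only member promoter with the full element, for INSIG1, STARD4 and IDI1, which fell, for DHCR7, which rose, and for SCD, which fell at low dose. For IDI1 and DHCR7, which have several RefSeq starts, the promoter with the most matches is shown. Capitals mark the sterol regulatory element, NF-Y boxes (CCAAT or, on the other strand, ATTGG) and E-boxes. The windows, 5′ to 3′ on the gene's own strand, are chr22:41832865-41833104 (+) for SREBF2, chr7:155297638-155297877 (+) for INSIG1, chr5:111512536-111512775 (-) for STARD4, chr10:1048887-1049126 (-) for IDI1, chr11:71448394-71448633 (-) for DHCR7 and chr10:100346993-100347232 (+) for SCD.
SREBF2: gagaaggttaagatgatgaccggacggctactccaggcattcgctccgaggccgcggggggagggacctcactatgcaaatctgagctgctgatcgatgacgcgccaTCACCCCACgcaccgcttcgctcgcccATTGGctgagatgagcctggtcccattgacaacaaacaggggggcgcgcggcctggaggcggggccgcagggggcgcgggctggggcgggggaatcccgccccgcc
INSIG1: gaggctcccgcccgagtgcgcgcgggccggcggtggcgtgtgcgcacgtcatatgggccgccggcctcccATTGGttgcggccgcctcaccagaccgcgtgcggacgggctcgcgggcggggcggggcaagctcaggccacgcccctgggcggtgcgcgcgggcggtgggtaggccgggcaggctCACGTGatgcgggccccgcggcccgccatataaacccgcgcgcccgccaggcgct
STARD4: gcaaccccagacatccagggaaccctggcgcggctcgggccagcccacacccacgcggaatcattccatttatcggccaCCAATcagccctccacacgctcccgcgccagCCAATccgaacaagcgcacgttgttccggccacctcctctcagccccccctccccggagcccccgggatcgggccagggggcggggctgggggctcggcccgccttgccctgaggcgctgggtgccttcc
IDI1: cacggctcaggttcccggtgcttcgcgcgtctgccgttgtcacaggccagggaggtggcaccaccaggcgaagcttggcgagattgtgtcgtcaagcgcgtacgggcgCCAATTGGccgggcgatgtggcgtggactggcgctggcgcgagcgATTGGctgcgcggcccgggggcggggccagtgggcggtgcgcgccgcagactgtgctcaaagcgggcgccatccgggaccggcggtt
DHCR7: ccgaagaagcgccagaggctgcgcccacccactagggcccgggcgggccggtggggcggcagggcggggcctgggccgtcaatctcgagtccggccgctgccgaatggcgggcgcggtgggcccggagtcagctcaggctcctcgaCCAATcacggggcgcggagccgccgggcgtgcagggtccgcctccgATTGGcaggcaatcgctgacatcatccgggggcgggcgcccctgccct
SCD: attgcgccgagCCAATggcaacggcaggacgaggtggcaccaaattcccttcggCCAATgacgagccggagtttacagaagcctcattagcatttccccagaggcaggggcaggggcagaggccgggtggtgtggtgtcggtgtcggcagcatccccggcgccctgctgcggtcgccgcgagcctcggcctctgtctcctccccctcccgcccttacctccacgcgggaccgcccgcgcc
In the SREBF2 promoter the element began 133 bases before the start, with an NF-Y box beginning 106 bases before it. INSIG1 had 1 NF-Y box and 1 E-box in this window. STARD4, which fell with INSIG1, had 2 NF-Y boxes, as did DHCR7, which rose, and SCD. Over all their promoters, INSIG1, STARD4 and IDI1, the members that fell at 500 nM, each had an NF-Y box. Of the members that rose, DHCR7 and FADS3 had one, SCAP and ELOVL6 had none, and SQLE had no promoter in the table. This is a description with no test. The NF-Y boxes of IDI1, 3 in all, include a pair that overlaps on opposite strands.

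Per kilobase of the canonical transcript, the DMSO level was highest for ACLY, the enzyme that makes cytosolic acetyl-CoA from citrate, at 1149 ± 21.3 normalized counts (SD, n = 3). FADS2 at 664 ± 21.4, FADS1 at 616 ± 19.2 and FDFT1, the squalene synthase, at 589 ± 8.20 followed. Among the regulators SREBF1 stood at 422 ± 7.49 and SREBF2 at 296 ± 5.65, SCAP at 364 ± 5.94, INSIG2 at 206 ± 8.84 and INSIG1 at 125 ± 12.6. HMGCS1 at 41.7 ± 2.20, CYP51A1 at 19.1 ± 3.73 and ACACA at 8.42 ± 4.16 were the lowest. Of the 32 pairs of neighbours in this order, 16 had overlapping DMSO libraries, among them every step from SREBF1 down to ACAT2.

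INSIG1, the anchor that retains SCAP when sterols are plentiful, is encoded on chromosome 7 (hg38, 155297776 to 155310235, plus strand, GENCODE release 44). Its normalized counts were 399, 326 and 363 in the DMSO libraries, 261, 299 and 281 at 0.5 nM, 239, 236 and 269.9 at 5 nM, 186, 254 and 199.96 at 50 nM and 187, 211 and 199.6 at 500 nM. Every treated library lay below every DMSO library, and the group means fell at each step of dose. The fold changes were -0.37 ± 0.11 (log2, SE) at 0.5 nM with adjusted p = 0.118, -0.54 ± 0.11 at 5 nM with adjusted p = 0.0112, -0.77 ± 0.11 at 50 nM with adjusted p = 9.89e-05 and -0.86 ± 0.11 at 500 nM with adjusted p = 1.21e-05. The falls at 50 and 500 nM kept their call in all 25 alternative analyses, and the fall at 5 nM lost it without DMSO replicate 1 (adjusted p = 0.085), without 5 nM replicate 1 (0.057) and without 5 nM replicate 2 (0.065). Replicate 2 at 50 nM, at 254, was the highest of its group, and without it the fold change at 50 nM was -0.90 with adjusted p = 1.44e-05.

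**Figure D1:**
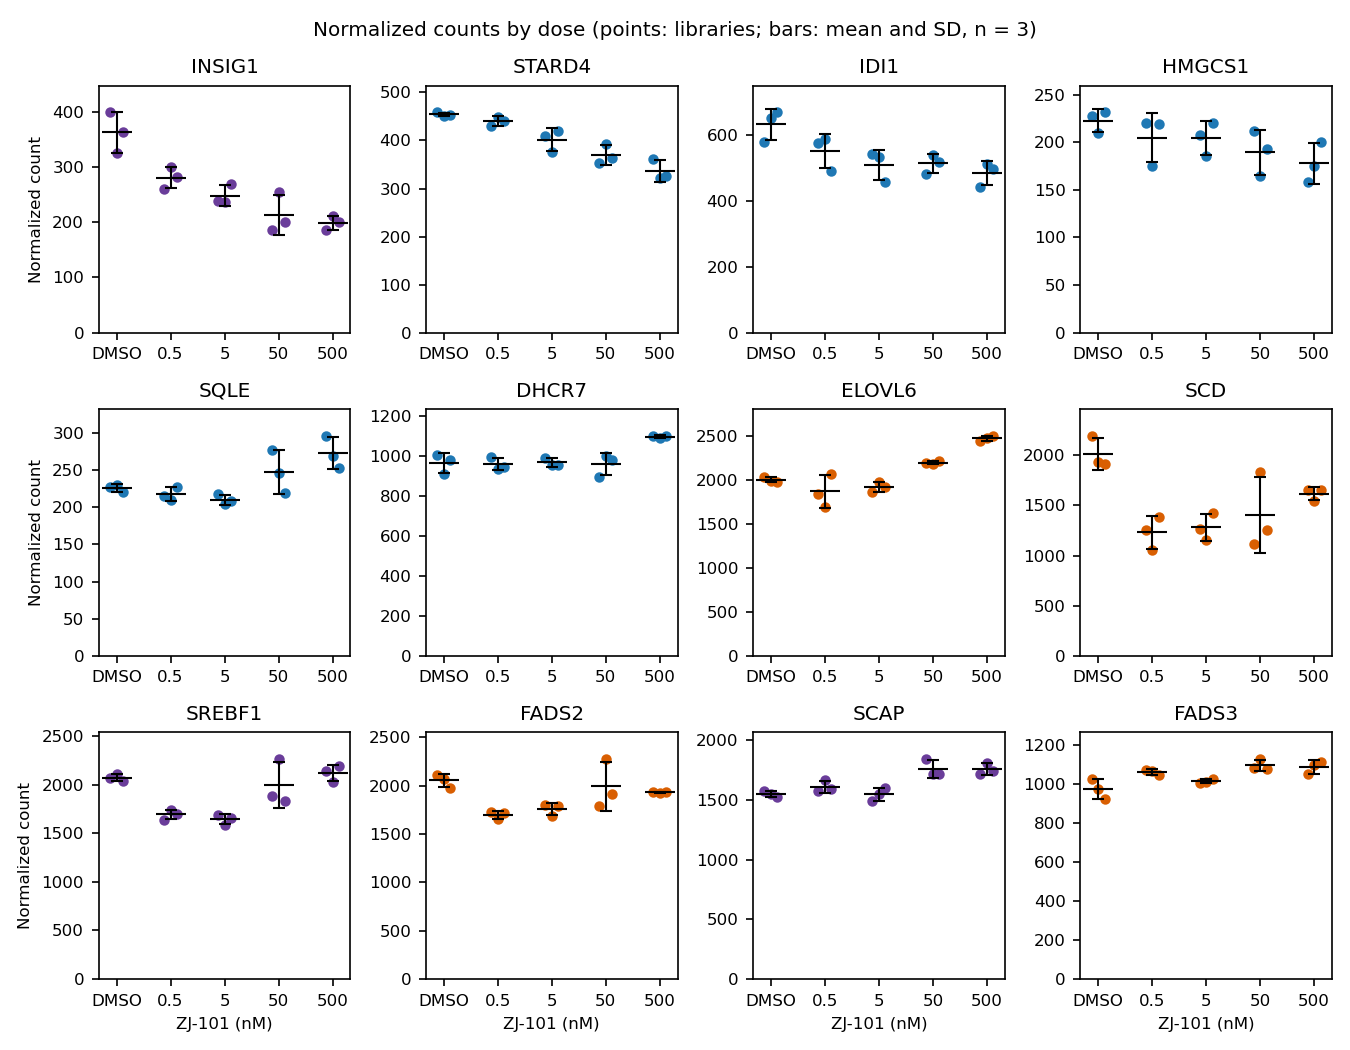
Normalized counts of 12 genes (y axis, from 0) in the 15 libraries by ZJ-101 dose in nM (x axis); points are libraries, and bars the mean and SD of 3 libraries. INSIG1 and STARD4 step down with dose, ELOVL6 steps up at 50 and 500 nM, and SCD and SREBF1 are lowest at 0.5 and 5 nM.

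SREBF1, which encodes SREBP1, the main SREBP of fatty acid genes, lies on chromosome 17 (17810399 to 17837002, minus strand) and had 2065, 2107 and 2034 normalized counts in DMSO. It stood at 1638, 1738 and 1701 at 0.5 nM and at 1691, 1586 and 1659 at 5 nM, then at 1879, 2264 and 1834 at 50 nM and 2138, 2028 and 2190.3 at 500 nM. All 6 libraries of the lower doses lay below all DMSO libraries, and those of the higher doses overlapped with DMSO. The gene fell by 0.29 at 0.5 nM (SE 0.06, adjusted p = 0.0279) and by 0.33 at 5 nM (SE 0.06, adjusted p = 0.00762), and at 500 nM the fold change was 0.03 with an interval of -0.10 to 0.16. From 5 to 50 nM it rose by 0.27 (adjusted p = 0.0141). The call at 0.5 nM was lost without any of the 3 DMSO libraries in turn (adjusted p = 0.11, 0.13 and 0.093 for replicates 1, 2 and 3), without 0.5 nM replicate 1 (0.098) and in a fit of those 2 groups alone (0.077). That at 5 nM (0.054) and that from 5 to 50 nM (0.076) were each lost without 5 nM replicate 2.

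SREBF2 encodes SREBP2, the main SREBP of sterol genes. Its counts were 1521, 1580.2 and 1546 in DMSO, 1282, 1263 and 1459 at 0.5 nM, 1386, 1352 and 1457 at 5 nM, 1431, 1586 and 1492 at 50 nM and 1496, 1416 and 1454 at 500 nM. The libraries at 0.5, 5 and 500 nM all lay below DMSO, but no dose passed the test. At 0.5 nM the fold change was -0.22 ± 0.06 with adjusted p = 0.0717 by limma and 0.0285 by DESeq2. At 500 nM it was -0.09 ± 0.06 (adjusted p = 0.309).

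SCAP, the sterol-sensing escort, moved the other way at the higher doses. Its counts were 1571, 1549 and 1521 in DMSO, 1571, 1662 and 1591 at 0.5 nM, 1487, 1549 and 1599 at 5 nM, 1843, 1715 and 1718 at 50 nM and 1716, 1809 and 1744 at 500 nM. All 6 libraries at 50 and 500 nM lay above all libraries at DMSO and 5 nM. The rise was 0.18 ± 0.05 at 50 nM (adjusted p = 0.0167) and 0.18 ± 0.05 at 500 nM (adjusted p = 0.00737), and the step from 5 to 50 nM was 0.19 ± 0.05 (adjusted p = 0.0189). The rise at 500 nM kept its call in all 25 alternatives, while that at 50 nM lost it without DMSO replicate 2 (0.060), DMSO replicate 3 (0.078) or 50 nM replicate 1 (0.11). INSIG2, the second anchor, stood at 733 ± 31.5 in DMSO and 656 ± 60.7 at 500 nM (SD, n = 3), a fold change of -0.16 with an interval of -0.32 to -0.01 and adjusted p = 0.146. The difference in fold change between INSIG1 and INSIG2 was not tested.

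Of the 7 genes of the mevalonate pathway, which builds isoprenoid units from acetyl-CoA, 1 passed the test at any dose, falling at 50 and 500 nM. Over all tested genes 2.29% rose and 3.71% fell at 50 nM, and 7.69% rose and 10.1% fell at 500 nM. IDI1 makes the isomer of isopentenyl diphosphate from which farnesyl diphosphate is assembled. Its counts were 579, 652 and 669.6 in DMSO, 578, 588 and 492 at 0.5 nM, 542, 533 and 458 at 5 nM, 482, 541 and 520.1 at 50 nM and 443, 513 and 496 at 500 nM. From 5 nM upward every library lay below every DMSO library. The fold change was -0.31 ± 0.09 at 5 nM (adjusted p = 0.0731), -0.30 ± 0.09 at 50 nM (adjusted p = 0.0472) and -0.39 ± 0.09 at 500 nM (adjusted p = 0.00339). The call at 500 nM held in all 25 alternatives and that at 50 nM was lost in 11 of them. An antisense gene on the opposite strand covers 14.97% of the exonic bases of IDI1, and whether reads were counted by strand is not stated in the sources used here.

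HMGCS1, which condenses acetyl-CoA units to HMG-CoA, had 228, 209 and 231 normalized counts in DMSO and 158, 175 and 200.5 at 500 nM. The 500 nM libraries lay below the DMSO libraries, but the fold change of -0.33 ± 0.12 did not pass (adjusted p = 0.0594). It passed in 5 alternatives, among them the fit of the 2 groups alone (adjusted p = 0.0254). A gene on the opposite strand covers 37.7% of its exonic bases. The other members of the pathway did not pass at any dose. At 500 nM the fold changes were 0.01 for the thiolase ACAT2, -0.14 for mevalonate kinase (MVK), -0.04 for phosphomevalonate kinase (PMVK), -0.12 for the decarboxylase MVD and -0.08 for farnesyl diphosphate synthase (FDPS). Over all 15 libraries their normalized counts ran from 436 to 563 for ACAT2, from 303 to 401 for MVK, from 345 to 469.6 for PMVK, from 401 to 528 for MVD and from 408 to 514 for FDPS.

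Among the 11 genes that turn farnesyl diphosphate into cholesterol by way of squalene, 2 passed at 500 nM and both rose. Over all tested genes 7.69% rose and 10.1% fell at that dose. SQLE, the squalene epoxidase and a rate-limiting oxygenase of the pathway, had 227, 231 and 220.2 normalized counts in DMSO, 215, 209 and 228 at 0.5 nM, 218, 205 and 208 at 5 nM, 277, 247 and 219 at 50 nM and 297, 269 and 253 at 500 nM. The 500 nM libraries lay above the DMSO libraries, and the 50 nM libraries overlapped with them. The fold change was 0.13 ± 0.09 at 50 nM (adjusted p = 0.522) and 0.27 ± 0.09 at 500 nM (adjusted p = 0.0398). The latter was lost in 7 of 25 alternatives, which were the analysis with no filter (0.067), DESeq2 (0.075), each DMSO library left out in turn (0.090, 0.077 and 0.12 for replicates 1, 2 and 3), 500 nM replicate 1 (0.18) and 500 nM replicate 2 (0.082).

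DHCR7 reduces 7-dehydrocholesterol to cholesterol and lies on chromosome 11 (71428193 to 71452868, minus strand). Its counts were 1002, 908 and 977 in DMSO, 994, 934 and 945 at 0.5 nM, 989, 953 and 955 at 5 nM, 894, 997 and 977 at 50 nM and 1099.7, 1088 and 1097 at 500 nM. The 500 nM libraries lay close together and above all other 12 libraries. The fold change was -0.01 at 50 nM with an interval of -0.12 to 0.10, and 0.19 ± 0.05 at 500 nM (adjusted p = 0.0166). The call was lost without DMSO replicate 2 (0.11), 500 nM replicate 1 (0.052) or 500 nM replicate 3 (0.050).

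The other 9 genes of these steps passed at no dose. At 500 nM squalene synthase (FDFT1) stood at 1105 ± 31.3 against 1199 ± 16.7 in DMSO (SD, n = 3), a fold change of -0.12 with adjusted p = 0.102. The sterol oxidase MSMO1 changed by -0.06, the decarboxylase NSDHL by 0.10, the isomerase EBP by 0.20, the desaturase SC5D by 0.03, the reductase TM7SF2 by -0.02 and the reductase HSD17B7 by 0.13. Over the 15 libraries MSMO1 ran from 329 to 464 normalized counts, NSDHL from 275 to 369.8, EBP from 137 to 211, SC5D from 339 to 412, TM7SF2 from 139.5 to 186 and HSD17B7 from 144 to 195, with treated and DMSO libraries overlapping for each at 500 nM except EBP. EBP at 500 nM lay just above DMSO in all 3 libraries, with adjusted p = 0.351. EBP and HSD17B7 each have 1 near-identical gene with which reads could be shared. CYP51A1, the lanosterol demethylase, had a fold change of 0.31 ± 0.19 (SE), and 74.1% of its exonic bases lie in other genes, 2 of them near-identical, so its value is uncertain. LSS, the lanosterol synthase, had 422, 223 and 193 normalized counts at 500 nM and 296, 366 and 252 in DMSO, and at this spread the interval of its fold change was -0.77 to 0.38.

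STARD4, a soluble carrier that moves cholesterol between the plasma membrane and the endoplasmic reticulum, lies on chromosome 5 (111496033 to 111512590, minus strand). Its counts were 458, 451 and 454 in DMSO, 429.6, 449.5 and 441 at 0.5 nM, 409, 375 and 420.3 at 5 nM, 352, 392 and 364 at 50 nM and 362, 322 and 325 at 500 nM. Every treated library lay below every DMSO library, and the group means fell at each dose as those of INSIG1 did. The fold changes were -0.05 ± 0.07 at 0.5 nM (adjusted p = 0.816), -0.18 ± 0.07 at 5 nM (0.219), -0.30 ± 0.07 at 50 nM (0.00824) and -0.44 ± 0.07 at 500 nM (1.09e-04). The fall at 500 nM held in all 25 alternatives and that at 50 nM was lost without 50 nM replicate 1 (0.053).

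**Figure D2:**
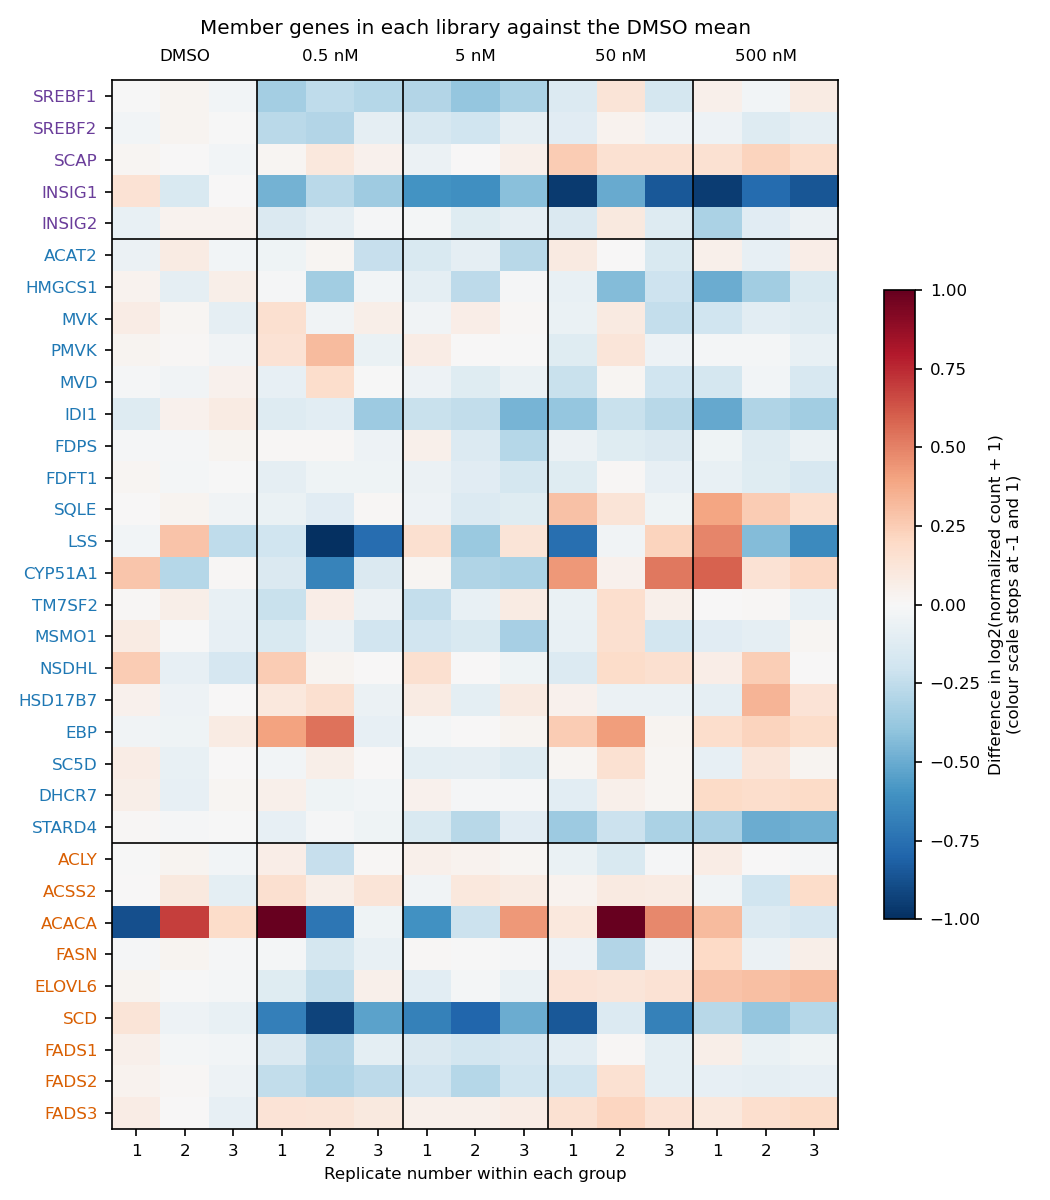
Difference of log2(normalized count + 1) from the DMSO mean for the 33 genes (rows, in the order regulators, sterol arm, fatty acid arm) in the 15 libraries (columns, 3 per group). Blue is lower and red higher than DMSO. INSIG1 is blue in every treated library, and among the treated libraries SCD is palest at 50 nM replicate 2. ACACA and LSS change colour within groups.

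In the fatty acid arm the largest change was that of SCD, which places a double bond into newly made saturated fatty acids. It lies on chromosome 10 (100347233 to 100364826, plus strand) and had 2196, 1937 and 1912 normalized counts in DMSO. At 0.5 nM it stood at 1255, 1057 and 1385, at 5 nM at 1261, 1158 and 1425, at 50 nM at 1119.6, 1831 and 1258 and at 500 nM at 1657, 1539 and 1653. All 12 treated libraries lay below all DMSO libraries, the nearest being 50 nM replicate 2. The fold change was -0.72 ± 0.13 at 0.5 nM (adjusted p = 0.0119), -0.66 ± 0.13 at 5 nM (0.0115), -0.55 ± 0.13 at 50 nM (0.0137) and -0.32 ± 0.13 at 500 nM (0.113). SCD passed at the 3 lower doses and not at the highest, where its libraries were close together. A fit of DMSO and 500 nM alone gave adjusted p = 0.000485 for the same fold change at 500 nM. Without replicate 2 at 50 nM, the fold change at 50 nM was -0.76 (adjusted p = 9.66e-05), the fall at 500 nM passed (0.0205) and the step from 50 to 500 nM was 0.44 (0.0427). The calls at 0.5, 5 and 50 nM were each lost without DMSO replicate 1 (0.085, 0.080 and 0.081). That at 0.5 nM was also lost without DMSO replicate 2 (0.054), that at 5 nM without its replicates 1 (0.052) or 2 (0.072), and that at 50 nM without its replicates 1 (0.11) or 3 (0.079).

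FADS2 and FADS1, neighbours on chromosome 11, desaturate polyunsaturated fatty acids at the delta-6 and delta-5 positions. FADS2 had 2106, 2073 and 1978 normalized counts in DMSO, 1732, 1653 and 1711 at 0.5 nM, 1795, 1685 and 1784 at 5 nM, 1790.1, 2276 and 1912 at 50 nM and 1936, 1925 and 1933 at 500 nM. Its low-dose libraries lay below the DMSO libraries, and the 50 nM libraries overlapped with them through replicate 2. The fold change was -0.27 ± 0.06 at 0.5 nM (adjusted p = 0.0452, lost in 16 of 25 alternatives) and -0.23 ± 0.06 at 5 nM (0.078). FADS1 had 2782, 2648 and 2629 in DMSO and 2430.1, 2188 and 2503 at 0.5 nM, a fold change of -0.18 ± 0.05 that did not pass (0.114). At 500 nM FADS1 stood at 2660.1 ± 126 against 2686 ± 83.6 in DMSO (SD, n = 3).

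ELOVL6, which extends palmitate to stearate, rose. Its counts were 2037, 1993 and 1978 in DMSO, 1845, 1692 and 2072 at 0.5 nM, 1862, 1976 and 1917 at 5 nM, 2197, 2178 and 2212 at 50 nM and 2441, 2472 and 2504 at 500 nM. The 3 libraries at 500 nM lay above those at 50 nM, which lay above all the rest. The fold change was 0.13 ± 0.05 at 50 nM (adjusted p = 0.198) and 0.30 ± 0.05 at 500 nM (5.77e-04), and the call at 500 nM held in all 25 alternatives. The step from 5 to 50 nM, 0.20 ± 0.05 (0.0469), was lost in 15 of 25. ELOVL6 and SCD act on the same fatty acids in sequence, and at 500 nM their fold changes were 0.30 and -0.32.

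FADS3, a desaturase of the same gene cluster as FADS1 and FADS2, had 1026, 974 and 920.2 normalized counts in DMSO, 1079.9, 1128 and 1076 at 50 nM and 1048, 1095 and 1114 at 500 nM. It rose by 0.17 ± 0.05 at 50 nM (adjusted p = 0.0399, lost in 13 of 25 alternatives) and by 0.16 ± 0.05 at 500 nM (0.0266, lost in 5). The enzymes that supply and join acetyl units did not pass at any dose. FASN, the fatty acid synthase, stood at 4164 ± 71.6 in DMSO and 4365 ± 390.2 at 500 nM (SD, n = 3), with an interval of -0.07 to 0.20 for the log2 fold change. ACLY stood at 4932 ± 91.4 and 5009 ± 159, with an interval of -0.10 to 0.15. The acetyl-CoA synthetase ACSS2 had a fold change of -0.02 and an interval of -0.19 to 0.16. ACACA, the carboxylase that commits acetyl-CoA to fatty acids, had 41.3, 124 and 87.2 normalized counts in DMSO, a spread that left an interval of -0.89 to 0.90 at 500 nM. The hg38 assembly holds a further copy of this locus on 1 alternate contig.

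**Figure D3:**
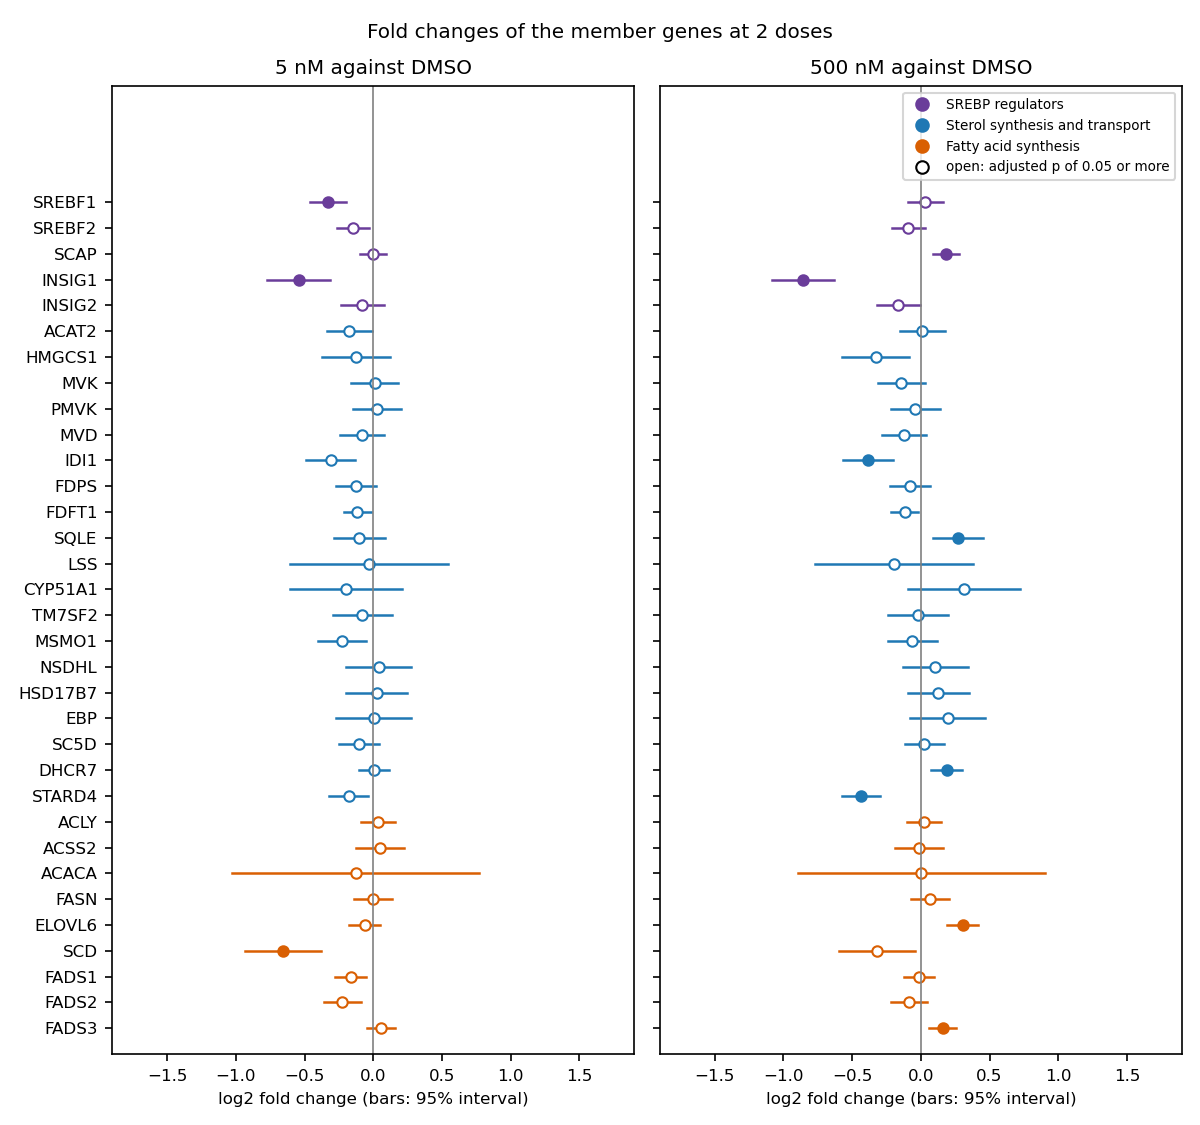
Log2 fold change of the 33 genes against DMSO at 5 nM (left) and 500 nM (right), with 95% intervals from limma as bars; filled circles passed an adjusted p of 0.05. At 5 nM the filled circles are INSIG1, SREBF1 and SCD, all left of 0, and at 500 nM 3 lie left and 5 right of 0.

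In the sterol arm 0 of 19 genes passed at 0.5 and 5 nM, 2 fell at 50 nM, and 2 rose and 2 fell at 500 nM, where the shares over all tested genes were 7.69% and 10.1%. In the fatty acid arm 2 of 9 fell at 0.5 nM, 1 fell at 5 nM, 1 rose and 1 fell at 50 nM, and 2 rose at 500 nM. Over all tested genes 0.922% fell at 0.5 nM, 1.71% fell at 5 nM, and 2.29% rose and 3.71% fell at 50 nM. At an unadjusted p under 0.05, 1 sterol gene was higher and 2 lower at 0.5 nM, and 0 were higher and 5 lower at 5 nM. The share of all tested genes at that unadjusted threshold was not computed. By edgeR 0 of the 19 passed at both doses. DESeq2 gave an adjusted p to only 14 of the 19 at 0.5 nM, of which 0 passed. At 5 nM it gave one to all 19, of which 1 fell. The median log2 fold change over the sterol arm was -0.05, -0.10, -0.03 and -0.04 at the 4 doses, and over the fatty acid arm it was -0.09, -0.06, -0.05 and 0.0045. Over all tested genes it was -0.0069, -0.00028, -0.0023 and 0.0027. The difference between the arms was not tested, since genes of an arm are not replicates. The median of the arms in each library, relative to DMSO, ran from -0.11 to 0.04 in the sterol arm and from -0.24 to 0.09 in the fatty acid arm among the 12 treated libraries. The upper end was 50 nM replicate 2 in both arms, and the lower end of the fatty acid arm was 0.5 nM replicate 2. Without 50 nM replicate 2, 5 of the 33 genes were called at 50 nM, and without 0.5 nM replicate 2, 2 were called at 0.5 nM.

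**Figure D4:**
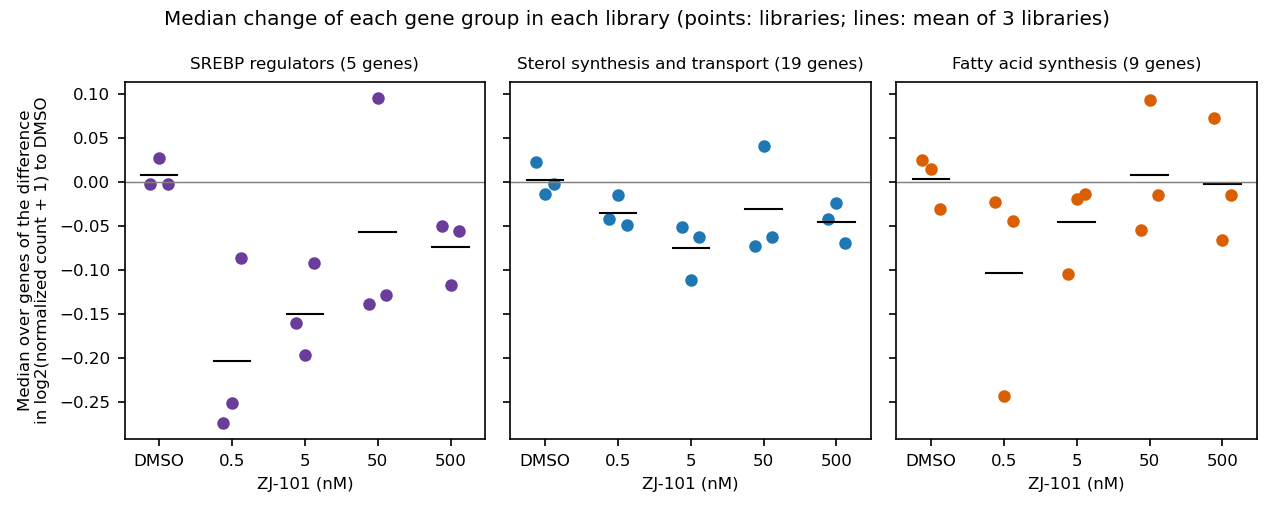
Median over the genes of each group of the difference in log2(normalized count + 1) to the DMSO mean (y axis), by dose in nM (x axis); points are libraries and lines the mean of 3 libraries. Sterol points of the treated libraries lie between -0.11 and 0.04, and the fatty acid points at 0.5 nM reach down to -0.24 in replicate 2.

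A straight line across dose ranks, from DMSO as the lowest to 500 nM as the highest, asked which genes had a slope over all 15 libraries. Such a slope does not require a change in the same direction at each step. The means of SQLE, called below, were 226, 217, 210, 248 and 273 from DMSO to 500 nM. By limma, 4 of the 33 rose and 4 fell with dose rank, where 8.23% of all tested genes rose and 9.33% fell. INSIG1 changed by -0.21 ± 0.03 per rank (log2, SE, adjusted p = 4.17e-06), STARD4 by -0.11 ± 0.01 (1.30e-05), IDI1 by -0.09 ± 0.02 (0.00368) and HMGCS1 by -0.08 ± 0.02 (0.0364). ELOVL6 changed by 0.08 ± 0.02 (0.00243), SQLE by 0.07 ± 0.02 (0.0353), SCAP by 0.05 ± 0.01 (0.00685) and FADS3 by 0.04 ± 0.01 (0.0412). The slopes of INSIG1, STARD4, SCAP and ELOVL6 kept their call in all 25 alternatives. Over the 12 treated libraries alone, those of IDI1 (0.17), HMGCS1 (0.21) and FADS3 (0.40) were lost. SCD, SREBF1 and FADS2, called at low dose, had slopes over all 15 libraries of -0.05, 0.03 and 0.0049 that did not pass. In the fit of the 12 treated libraries, which leaves out DMSO, SCD, SREBF1 and FADS2 rose and passed. Their slopes there were 0.13 (adjusted p = 0.045), 0.12 (0.0019) and 0.07 (0.0328) per rank. FADS1 at 0.06 (0.0238) and CYP51A1 at 0.24 (0.0109) also passed in that fit and not over all 15 libraries. The share of all tested genes that passed over the 12 treated libraries alone was not computed.

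The steps between neighbouring doses compare treated libraries with each other, and the DMSO libraries enter only through the spread that all 5 groups share. From 5 to 50 nM, 3 of the 33 genes rose and 0 fell, SREBF1, SCAP and ELOVL6, where 5.01% of all tested genes rose or fell. From 50 to 500 nM, 0 passed, where 2.28% of all tested genes did. The count tests edgeR and DESeq2 on the recovered reads also called 0. At an unadjusted p under 0.05, 3 members were higher in this step and 0 lower, with no share over all tested genes computed. The member nearest to passing was DHCR7, with 0.20 ± 0.05 and adjusted p = 0.0556.

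A further 49 genes of sterol and fatty acid metabolism were read from the same fits, and 47 of them passed the filter on low values. At 500 nM 10 of the 47 rose and 6 fell, where 7.69% of all tested genes rose and 10.1% fell, the shares against which the counts of the lists below stand as well. Among 7 genes of SREBP processing and turnover 1 rose and 3 fell. SYVN1, a ubiquitin ligase of the endoplasmic reticulum, rose by 0.29 ± 0.05 (log2, SE, adjusted p = 2.85e-04). ERLIN2 and ERLIN1, partner proteins of the endoplasmic reticulum membrane that restrain the activation of SREBPs, fell from 762 ± 44.02 to 541 ± 40.9 and from 1864 ± 44.8 to 1533 ± 34.0 (SD, n = 3), by 0.50 (1.85e-04) and 0.28 (2.09e-04). MBTPS1, named here after its values were seen because it encodes a protease that releases SREBPs, fell by 0.22 (0.0116). INSIG1, both ERLIN genes and MBTPS1 were lower at the highest dose, in all 3 libraries, than in any DMSO library. SYVN1 and SCAP were higher in the same way, as was MBTPS2, which did not pass the test. How many of all tested genes separate like this was not counted.

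Among 10 tested genes of sterol handling and of the sterol-sensing LXR receptors, 3 rose and 2 fell. TMEM97, a sterol-binding membrane protein and a known SREBP target, rose from 425 ± 46.0 to 681 ± 35.0 (0.68 ± 0.09, 1.21e-05), a larger fold change than that of any of the 33 genes that rose. SOAT1, which esterifies cholesterol for storage, rose by 0.30 ± 0.05 (1.82e-04). MYLIP, a ubiquitin ligase induced by LXR, fell from 364 ± 39.8 to 238 ± 6.99 (-0.60 ± 0.09, 5.37e-05), and GRAMD1A, a carrier of cholesterol into the endoplasmic reticulum, fell by 0.27 (0.00167). ABCG1 and GRAMD1B lay below the filter.

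Of 22 other genes of fatty acid and glycerolipid metabolism 6 rose and 1 fell. ELOVL5, an elongase of polyunsaturated fatty acids, had 3706, 3615 and 3767 normalized counts in DMSO and 4951, 4941 and 4996 at 500 nM, a rise of 0.43 ± 0.04 (9.16e-08). ACSL5, an acyl-CoA synthetase, rose by 0.33 ± 0.05 (5.63e-05). SLC25A1, which exports citrate from mitochondria for ACLY, fell by 0.30 (0.00267). Of 8 genes of other isoprenoid branches, which make ubiquinone, dolichol and the lipid anchors of proteins, 0 passed by limma, by edgeR or by DESeq2. At an unadjusted p under 0.05, 1 of these 8 was higher and 0 lower. The share of all tested genes at the unadjusted threshold was not computed.

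**Figure D5:**
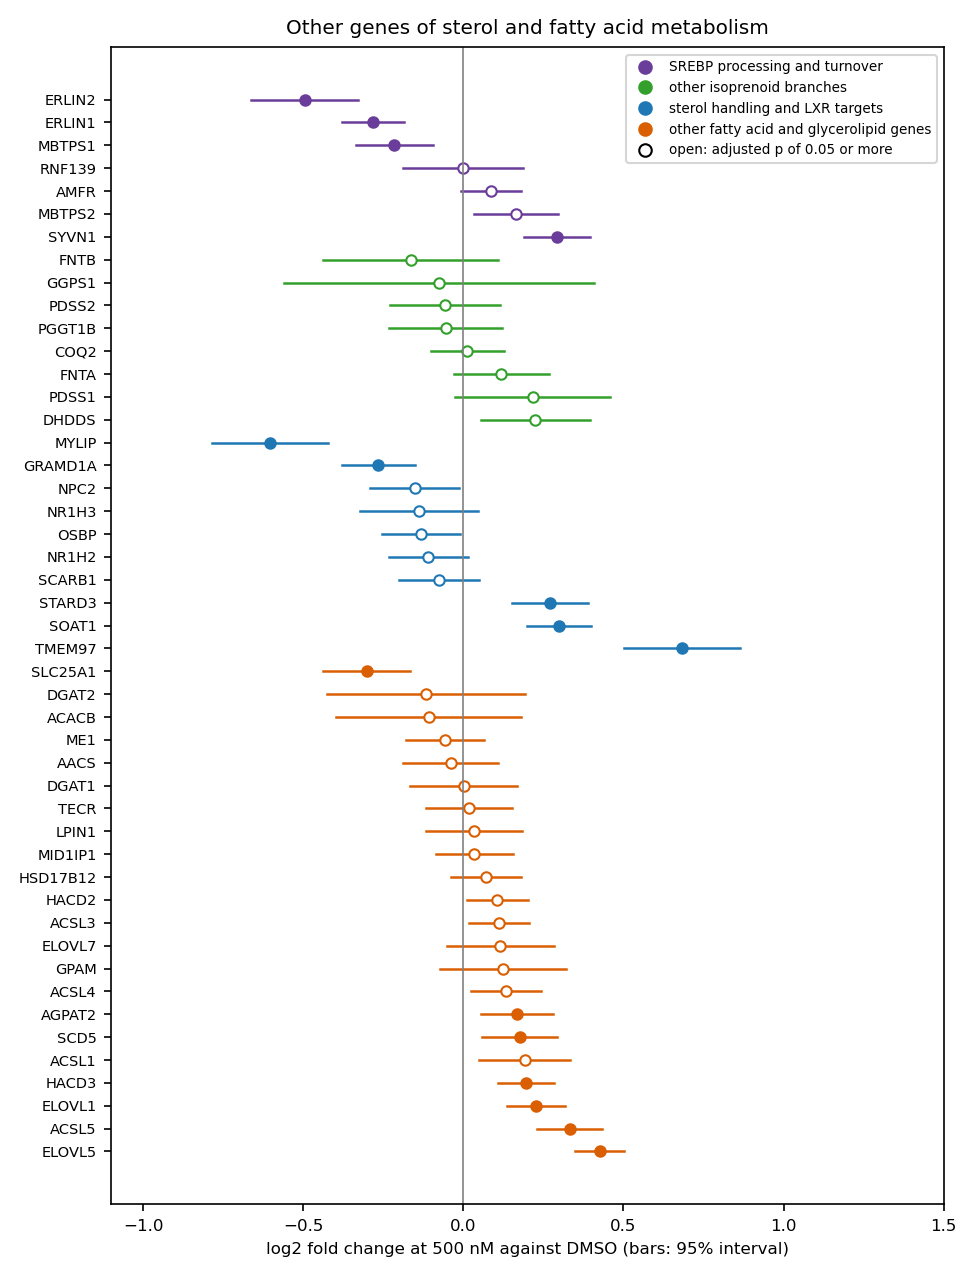
Log2 fold change at 500 nM against DMSO (x axis) for the 47 tested other genes of sterol and fatty acid metabolism, grouped by list, with 95% intervals from limma; filled circles passed an adjusted p of 0.05. TMEM97 and ELOVL5 lie furthest right, MYLIP and ERLIN2 furthest left, and all 8 genes of other isoprenoid branches are open.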

How the data were processed

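Poly-A RNA of MDA-MB-231 cells was sequenced as paired-end reads. The authors used HISAT2 to align to hg38, htseq-count with a GENCODE annotation to obtain a count for every gene, and DESeq2 to normalize; versions are not given in the sources used here. The deposited signal per gene is the read count divided by a size factor of the library, called a normalized count here, and 100% of the values were whole reads times 1 step per library within 0.001. From these values, log2(normalized count + 1) of the 13561 of 59608 genes with a mean of at least 10 was fitted in limma 3.58.1 (R 4.3.3) with a variance trend, over all 5 groups at once (10 residual degrees of freedom). P-values were two-sided and adjusted by Benjamini-Hochberg over all tested genes at 0.05, and intervals are 95% intervals. The study compared doses with DESeq2, so the count tests of edgeR 4.0.16 (quasi-likelihood) and DESeq2 1.42.0 on the recovered reads were run as alternatives, as were other pseudocounts, filters and scalings, the fit of only the groups compared, replicate numbers as a block and each library left out in turn. The 33 genes and the 4 lists of 49 other genes were chosen with earlier results of these data known. All 33 are named, and from each list up to 2 rises and 2 falls of largest fold change past the threshold at 500 nM; 1 gene taken out of these lists is not reported here. Gene positions are from GENCODE release 44. Genes with near-identical copies were found with minimap2 2.31 (at least 50% of the transcript at 95% identity), and copies on 261 alternate contigs with 90% at 99% identity. Levels between genes were compared per kilobase of the canonical transcript. The scripts were tested on simulated data. A line of the table that held only doses (1 row) was left out.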

Additional observations from a re-analysis of the deposited data

How the results depend on the processing

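Each result was recomputed in 25 alternatives, and no call on a single gene turned its direction. For the 20 calls on single genes and comparisons, 424 recomputed values kept the call and 76 lost it. The counts of called genes moved with single libraries. At 0.5 nM the count of 3 ran from 0 to 7 as each library was left out, with 0 without DMSO replicate 1 or 2, 1 without DMSO replicate 3 or 0.5 nM replicate 1 and 7 when 0.5 nM replicate 3 was left out. At 5 nM the count of 3 ran from 0 to 6, with 1 when DMSO replicate 1 or 5 nM replicate 1 was left out, 0 when 5 nM replicate 2 was and 6 when 0.5 nM replicate 2 was. At 50 nM the count of 6 ran from 1 to 7, with 1 when 50 nM replicate 1 was left out and 3 when DMSO replicate 2, DMSO replicate 3 or 50 nM replicate 3 was. At 500 nM the count of 8 ran from 5 to 10, with 5 without DMSO replicate 2. The slope on dose rank gave 5 to 9 against 8, with 5 without 500 nM replicate 2. The step from 5 to 50 nM gave 0 to 3 against 3, with 1 when 5 nM replicate 1 was left out and 0 when its replicate 2 was. The step from 50 to 500 nM gave 0 to 2 against 0, with 2 when 0.5 nM replicate 2 was left out and 1 when 0.5 nM replicate 3 or 50 nM replicate 2 was. At 500 nM the sterol arm had 2 to 5 calls against 4, with 2 without DMSO replicate 2 or 500 nM replicate 1. The fatty acid arm had 1 to 3 against 2, with 1 when DMSO replicate 2, DMSO replicate 3, 500 nM replicate 2 or 500 nM replicate 3 was left out. The sterol median ran from -0.0581 to -0.0146 against -0.0389, the highest when 500 nM replicate 3 was left out, and the fatty acid median from -0.0072 to 0.0736 against 0.0045, a value near 0 that was below 0 with a pseudocount of 5, by edgeR (-0.0060), by DESeq2 (-0.0046) and without 500 nM replicate 1, each time by less than the spread between libraries (SD 0.0699). With fewer samples each such fit also has fewer degrees of freedom. Fitted to only the groups compared, 1 gene was called at 0.5 nM, 7 at 5 nM and 1 from 50 to 500 nM. DESeq2 called 5 at 5 nM. With no filter, which tests more genes, the slope called 5, the step from 5 to 50 nM 1 and the fatty acid arm 1 at 500 nM, and with a mean of at least 50 the step from 50 to 500 nM called 1. Elsewhere the cause was not tested.

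The replicate numbers marked no strong pairing of the libraries, and a weak pairing is not excluded. Over 30 pairs of libraries with the same number the correlation of deviations ran from -0.09 to 0.10 and was over 0.1 in 0, and 9 of 15 libraries correlated best with their own number. With replicate numbers as a block, 2 genes were called at 0.5 nM, 3 at 5 nM, 6 at 50 nM, 9 at 500 nM, 7 by the slope, 4 from 5 to 50 nM and 0 from 50 to 500 nM. At 12415519 to 15284762 reads per library, ACACA, LSS and CYP51A1 had the widest intervals at 500 nM, and a change within such an interval was not detectable here; what sets their spread was not tested.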
